A study of Mus musculus with 8 samples.

Results

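The globin genes of red blood cells were measured in whole dorsal forebrain, as the RNA of blood carried in the tissue. The set held 7 globin genes and Alas2, chosen by name: Hba-a1, Hba-a2, Hba-x, Hbb-y, Hbb-bh1, Hbb-bt, Hbb-bs and Alas2. These are 8 of the 43629 genes counted, and all 8 passed the low-count filter that left 15382 genes. RNA was sequenced from male mouse embryos of day E12.5, and the strain is given as mixed, with C57BL/6J in it. There were 4 samples of the genotype Emx1-cre/+;Sufu-fl/fl, called Sufu-cKO, with the titles Mut_295, Mut_317, Mut_337 and Mut_340. The control group, also of 4, held Cont_294, Cont_345, Cont_365 and Cont_370, which were Sufu-fl/fl or Sufu-fl/+ without a stated Cre, so both groups carried floxed alleles. Emx1-cre is known to act in progenitors of the dorsal telencephalon and their descendants, a neural lineage.

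Haemoglobin is a tetramer of alpha-like and beta-like globin chains, each holding a heme. In the mouse embryo the first red cells come from the yolk sac and make embryonic chains, from Hba-x (zeta), Hbb-bh1 (beta h1) and Hbb-y (epsilon y). Red cells from the fetal liver come later and make the adult chains, from Hba-a1 and Hba-a2 (alpha) and from Hbb-bs and Hbb-bt (beta). RNA of the adult genes, the alpha genes above all, need not come from fetal liver cells alone. Which red cells made the adult globin RNA measured here was not tested. Alas2 encodes the erythroid form of the first enzyme of heme synthesis.

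Total counts ranged from 27514357 to 34878838 per sample. Levels are CPM, the count of a gene scaled to the TMM-adjusted size of its library. Sufu itself had 35.9 to 44.8 CPM in Sufu-cKO and 105 to 125 CPM in control samples (log2 fold change -1.46, edgeR quasi-likelihood test, adjusted p = 1.07e-06). Markers of the dorsal forebrain, among them Emx2 and Lhx2, were expressed in both groups. The labels do not say whether samples are separate embryos or litters. The p-values therefore rest on the variation among these 8 samples, which may be technical. In bulk tissue, fewer red cells and less globin RNA per red cell cannot be told apart.

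Embryonic globins held most of the globin counts. How reads shared by the near-identical adult copies were counted is not stated, so the adult part may be too low. The 7 globins took 0.294% to 0.350% of all counts in Sufu-cKO samples and 0.351% to 0.469% in controls. Hbb-y alone made up 81.6% ± 1.84 of the globin counts in Sufu-cKO and 79.4% ± 2.34 in control samples (SD, n = 4 each). Divided by exon length, Hbb-y had 4096 CPM per kb in Sufu-cKO and 4903 CPM per kb in control samples, which placed it first among the 15284 tested genes with a known length. Hba-x followed with a level of 315 CPM per kb in Sufu-cKO and 453 CPM per kb in control samples, at rank 24. Among the adult genes Hbb-bs had 151 CPM per kb in Sufu-cKO and 188 CPM per kb in controls, at rank 100. The other 4 globins lay between ranks 238 (Hbb-bh1) and 1592 (Hba-a2) by level per length, and Alas2 stood at rank 3854.

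The adult genes come in pairs of near-identical copies, which limits how their levels can be read. The coding sequences of Hba-a1 and Hba-a2, both 426 bases, differ at 1 base, and so do those of Hbb-bs and Hbb-bt, both 441 bases, in the GENCODE M21 transcripts. The 60 bases around each difference are shown here 5′ to 3′, with the differing base in capitals.
Hba-a1: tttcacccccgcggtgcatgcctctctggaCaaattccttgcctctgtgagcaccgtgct
Hba-a2: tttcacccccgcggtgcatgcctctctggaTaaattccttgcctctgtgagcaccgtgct
Hbb-bs: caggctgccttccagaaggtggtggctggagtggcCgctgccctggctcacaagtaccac
Hbb-bt: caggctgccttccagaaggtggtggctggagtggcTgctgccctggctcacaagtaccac
Of all 50-base windows of the transcript, 67.5% of those of Hba-a1 and 86.9% of those of Hba-a2 occur in both genes. The shared portion was 65.8% for Hbb-bs and 58.3% for Hbb-bt. Hbb-y, Hbb-bh1 and Hba-x shared 0 of their 50-base windows with another transcript, and the coding sequences of Hbb-y and Hbb-bh1 are 76.4% identical. No source used here states how reads that match both copies were counted. The levels of the 4 adult genes are therefore uncertain, and the part of shared reads in their rank below Hbb-y and Hba-x was not tested. Of the 50-base windows of Alas2, 13.8% also occur in a transcript of the overlapping gene Apex2 or of Mir3620, and its level is uncertain to that extent, since the strand setting of the counting is not stated either.

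Promoter sequence was examined because the globins are all expressed in red cells, though not all at the same stage. Embryonic and adult globin promoters carry short motifs known from erythroid genes: GATAA, the core of GATA factor sites, CACCC, the box bound by KLF1, and CCAAT, along with ATATAA, a form of the TATA box. The last 120 bases before the start of an embryonic and an adult gene of each cluster follow, from RefSeq on GRCm38.p6, 5′ to 3′ on the strand of the gene, with these motifs or their reverse complements in capitals. They are Hbb-y at chr7:103853208-103853327 and Hbb-bs at chr7:103827929-103828048, both on the minus strand, and Hba-x at chr11:32276480-32276599 and Hba-a1 at chr11:32283552-32283671, both on the plus strand. RefSeq's starts differ from the gene bounds of the deposited table.
Hbb-y: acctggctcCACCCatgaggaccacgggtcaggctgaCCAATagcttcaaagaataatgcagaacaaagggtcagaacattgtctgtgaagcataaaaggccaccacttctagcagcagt
Hbb-bs: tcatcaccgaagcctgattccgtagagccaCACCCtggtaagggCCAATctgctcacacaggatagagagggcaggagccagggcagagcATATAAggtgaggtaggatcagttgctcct
Hba-x: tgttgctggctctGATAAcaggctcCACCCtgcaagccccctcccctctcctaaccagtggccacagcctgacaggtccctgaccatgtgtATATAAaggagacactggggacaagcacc
Hba-a1: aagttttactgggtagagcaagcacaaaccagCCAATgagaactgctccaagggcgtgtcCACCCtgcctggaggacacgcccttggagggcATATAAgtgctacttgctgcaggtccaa
Within 250 bases before the start, and on either strand, GATAA occurred in 6 of the 6 globin promoters at hand, against 22.6% of all 32851 promoter windows of that length. CACCC occurred in 6 of 6 against 52.0%, CCAAT in 5 of 6 against 33.8%, and ATATAA in 5 of 6 against 9.1%. The 120 bases of Hba-a1 occur unchanged upstream of Hba-a2, with the annotated starts 3 bases apart. A match of this kind is a description of letters and does not show that a factor binds. Hbb-bh1 was not among the promoters examined.

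All 8 genes had a log2 fold change below 0 in Sufu-cKO, and none passed the test over all genes. The fold changes of the 8 genes had a median of -0.36 on the log2 scale, against 0.01 over all tested genes, of which 48.2% lay below 0. EdgeR called 0 of the 8 at an adjusted p under 0.05, where it called 11.0% of all tested genes in either direction and 5.64% as lower. At an unadjusted p under 0.05 there were 4 of the 8 (Hbb-y, Hba-a2, Alas2 and Hba-x), against 22.5% of all tested genes in either direction and 10.9% as lower. DESeq2 called 2 of the 8 as lower (Hbb-y and Hba-a2), against 13.8% of the tested genes in either direction and 6.96% as lower. Limma-voom called 0, against 10.9% in either direction and 5.6% as lower. All 8 were measured in the same libraries and are genes of red cells, so they are not independent of each other.

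**Figure D1:**
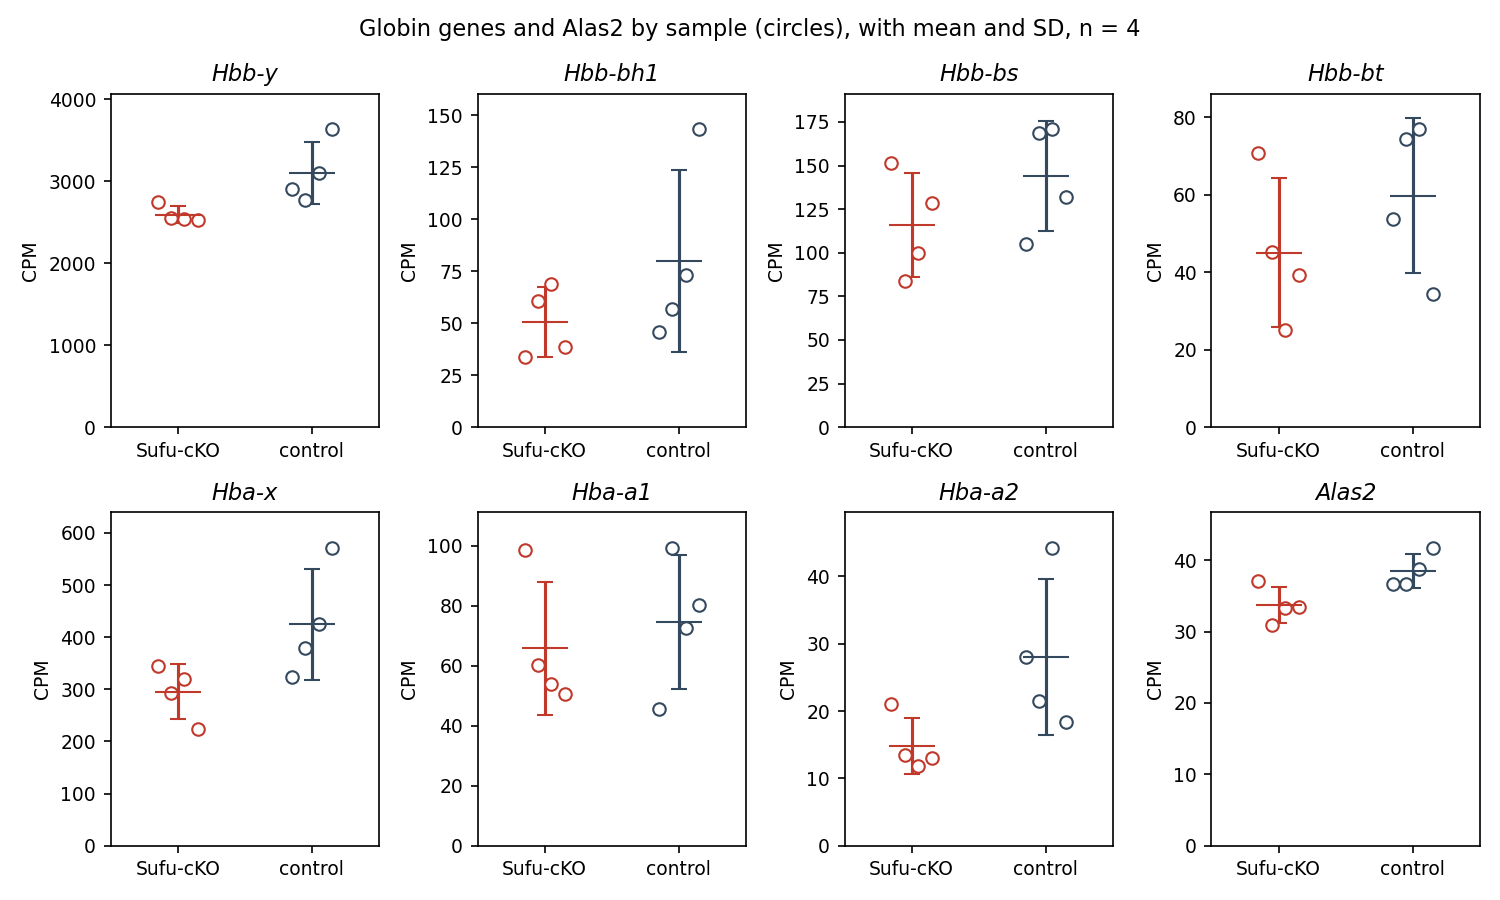
Level of each gene in CPM (vertical axis, from 0) in the 4 Sufu-cKO and 4 control samples. Circles are samples, the wide bar is the group mean and the capped bar 1 SD. Only for Hbb-y do the circles of the 2 groups not overlap, at up to 2751 CPM in Sufu-cKO and from 2774 CPM in control samples.

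Hbb-y (ENSMUSG00000052187, chromosome 7, 103851745 to 103853240, minus strand, GRCm38), the embryonic epsilon y chain, had 2751 CPM in Mut_295, 2553 in Mut_317, 2538 in Mut_337 and 2529 in Mut_340. In control samples it had 2900 CPM in Cont_294, 2774 in Cont_345, 3106 in Cont_365 and 3634 in Cont_370. The groups did not overlap, though Mut_295 came close to Cont_345, and Cont_370 stood highest. The means were 2593 ± 106 CPM in Sufu-cKO and 3104 ± 379 CPM in control samples (SD, n = 4 each). The log2 fold change was -0.26 (edgeR, SE 0.080, adjusted p = 0.0602). Groups were free of overlap for 1 of the 8 genes, against 16.2% of all tested genes and 7.86% with Sufu-cKO lower. The call depended on the method and on single samples. DESeq2 called Hbb-y (adjusted p = 0.0154), and edgeR called it without Cont_345 (adjusted p = 0.0455) or without Mut_295 (adjusted p = 0.0480). In the authors' deposited table its fold change was 0.835 with a false discovery rate of 0.0765.

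Hba-x (ENSMUSG00000055609, chromosome 11, 32276400 to 32278116, plus strand), the embryonic alpha-like chain, had 344 CPM in Mut_295, 293 in Mut_317, 320 in Mut_337 and 223 in Mut_340. Control samples had 324 CPM in Cont_294, 379 in Cont_345, 424 in Cont_365 and 572 in Cont_370. The groups overlapped through Mut_295 and Cont_294, and Mut_340 and Cont_370 marked the extremes. The log2 fold change was -0.53 (edgeR, SE 0.196, adjusted p = 0.155), and -0.36 without Cont_370 (edgeR, adjusted p = 0.215).

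Hbb-bh1 (ENSMUSG00000052217, chromosome 7, 103841636 to 103843164, minus strand), the beta-like chain of the earliest primitive red cells, was the most variable of the set. It had 33.9 CPM in Mut_295, 60.7 in Mut_317, 68.7 in Mut_337 and 38.5 in Mut_340. Control samples had 46.0 CPM in Cont_294, 56.8 in Cont_345, 72.9 in Cont_365 and 143 in Cont_370. Cont_370 stood far above the next highest sample, and the other 7 samples of both genotypes were interleaved. The log2 fold change of -0.66 (edgeR, SE 0.431, adjusted p = 0.447) was -0.22 without Cont_370 (edgeR, adjusted p = 0.752).

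The adult beta genes Hbb-bs and Hbb-bt showed wide overlap. Hbb-bs (ENSMUSG00000052305, chromosome 7, 103826534 to 103828096, minus strand) had 151, 84.0, 99.8 and 129 CPM in Mut_295, Mut_317, Mut_337 and Mut_340. Control values were 105, 168, 171 and 132 CPM in Cont_294, Cont_345, Cont_365 and Cont_370, and its log2 fold change was -0.31 (edgeR, SE 0.226, adjusted p = 0.494). The highest and the lowest Sufu-cKO samples were Mut_295 and Mut_317. Hbb-bt (ENSMUSG00000073940, chromosome 7, 103812524 to 103813996, minus strand) had 70.8, 45.2, 25.0 and 39.3 CPM in the Sufu-cKO samples in the same order. Its control values were 53.7, 74.3, 76.9 and 34.3 CPM, with a log2 fold change of -0.41 (edgeR, SE 0.384, adjusted p = 0.625), which was -0.22 without Mut_337 and -0.72 without Mut_295. The fold change of Hbb-bs was -0.19 without Mut_317 and -0.47 without Mut_295. For Hbb-bt Cont_370, the highest sample for Hbb-y, Hba-x and Hbb-bh1, was the lowest control. With the copies summed to 1 gene before the fit, adult beta had 161 ± 45.1 CPM in Sufu-cKO and 204 ± 47.8 CPM in control samples (SD, n = 4 each; log2 fold change -0.34, edgeR, SE 0.238, adjusted p = 0.481).

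The adult alpha copies differed from each other in their fold changes. Hba-a1 (ENSMUSG00000069919, chromosome 11, 32283511 to 32284465, plus strand) had 98.6, 60.05, 54.0 and 50.5 CPM in Mut_295, Mut_317, Mut_337 and Mut_340. Control values were 45.5, 99.3, 72.5 and 80.3 CPM in Cont_294, Cont_345, Cont_365 and Cont_370, and its log2 fold change was -0.18 (edgeR, SE 0.301, adjusted p = 0.803). Single samples decided its size, which was -0.0089 without Cont_345 and -0.44 without Mut_295. The lowest of all 8 samples was a control, Cont_294. Hba-a2 (ENSMUSG00000069917, chromosome 11, 32296489 to 32297298, plus strand) had 20.99, 13.4, 11.9 and 13.0 CPM in the Sufu-cKO samples in the same order. Its control values were 28.0, 21.5, 44.3 and 18.4 CPM, with a log2 fold change of -0.92 (edgeR, SE 0.307, adjusted p = 0.112). Cont_365 and Cont_294 were highest, only Mut_295 reached into the control range, and the fold change was -0.62 without Cont_365. DESeq2 called Hba-a2 (adjusted p = 0.0465), as did edgeR without robust estimation (adjusted p = 0.0487). Summed to 1 gene, adult alpha had 80.6 ± 26.4 CPM in Sufu-cKO and 102 ± 21.6 CPM in control samples (SD, n = 4 each; log2 fold change -0.35, edgeR, SE 0.248, adjusted p = 0.492), so the fold change of Hba-a2 was not that of the summed copies.

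Alas2 (ENSMUSG00000025270, chromosome X, 150547375 to 150570638, plus strand) had 37.1 CPM in Mut_295, 31.0 in Mut_317, 33.3 in Mut_337 and 33.5 in Mut_340. Control samples had 36.7 CPM in Cont_294, 36.6 in Cont_345, 38.8 in Cont_365 and 41.7 in Cont_370. Mut_295 lay above both lowest controls, and the other Sufu-cKO samples lay below all controls. The log2 fold change was -0.19 (edgeR, SE 0.075, adjusted p = 0.145).

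**Figure D2:**
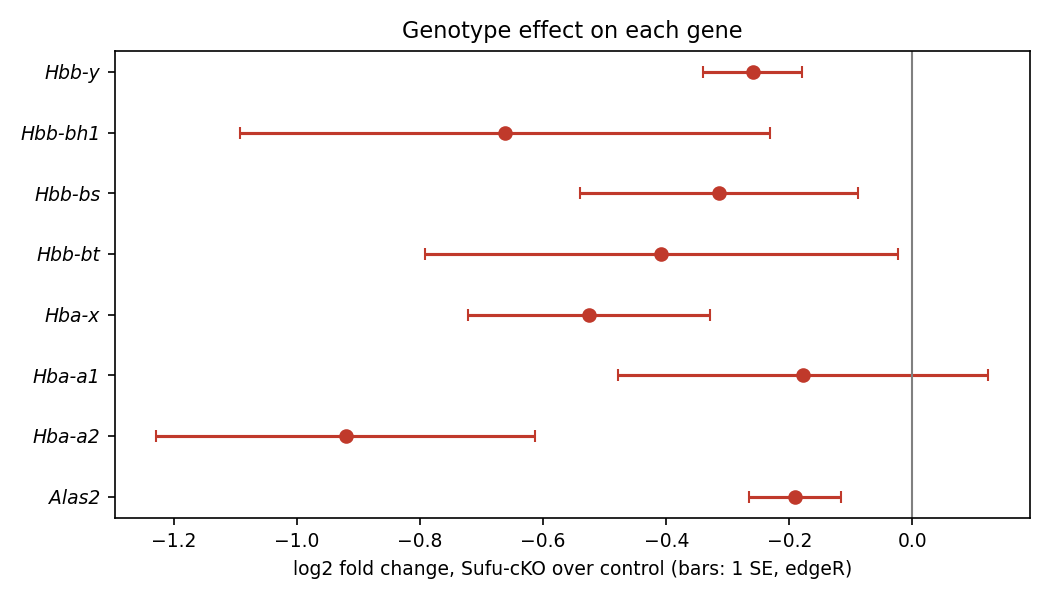
Log2 fold change of each gene, Sufu-cKO over control (horizontal axis), with bars of 1 SE from edgeR. All 8 points lie left of 0, from -0.92 for Hba-a2 to -0.18 for Hba-a1, and the bars are shortest for Hbb-y and Alas2.

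Spread between samples of a genotype set the 2 steadiest genes apart from the rest. The within-group SD on the log2 CPM scale was 0.098 for Alas2 and 0.13 for Hbb-y, between 0.31 and 0.61 for the other 6. Of the tested genes that averaged 10 CPM or more, 43.3% varied less than Alas2 and 64.6% less than Hbb-y. For Hba-x, Hbb-bs, Hba-a1, Hba-a2, Hbb-bt and Hbb-bh1 that share ran from 97.2% to 99.6%. Their fold changes were measured against this spread, and their SEs on the log2 scale were 0.196 to 0.431, against 0.075 and 0.080 for Alas2 and Hbb-y.

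The summed level of the 7 globins was 3471, 3110, 3117 and 3022 CPM in Mut_295, Mut_317, Mut_337 and Mut_340. It was 3503, 3573, 3968 and 4614 CPM in Cont_294, Cont_345, Cont_365 and Cont_370. The groups did not overlap, as they did not for Hbb-y alone, and Mut_295 came close to the lowest control. Of single tested genes 16.2% lacked overlap, 7.86% with Sufu-cKO lower, and no such share was computed for sums. The ratio of the group means was -0.30 on the log2 scale. Hbb-y dominates this sum, so it repeats that gene's values and is given as a description.

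Shares and ratios within the globin counts do not depend on library scaling and compare the makeup of the globin RNA. A total of 7 such measures was compared by an exact permutation test over the 70 assignments of the genotype labels, 2-sided, for which 0.0286 is the smallest possible p. None had an unadjusted p below 0.143, and adjusted p-values over the 7 measures ran from 0.533 to 0.914. Hbb-bh1 made up 1.22%, 2.32%, 2.64% and 1.499% of the counts of the embryonic beta-like genes Hbb-bh1 and Hbb-y in Mut_295, Mut_317, Mut_337 and Mut_340. The share was 1.56%, 2.01%, 2.29% and 3.79% in Cont_294, Cont_345, Cont_365 and Cont_370. It was highest in Cont_370 and lowest in Mut_295, with the other samples of the genotypes interleaved (exact permutation, p = 0.457). Wilson 95% intervals of these shares were at most 0.217 percentage points wide, so most samples differed by more than counting error, which is the only error the intervals cover.

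Adult beta, Hbb-bs and Hbb-bt together, made up 7.38%, 4.71%, 4.57% and 6.13% of the beta-like counts in Mut_295, Mut_317, Mut_337 and Mut_340. Control shares were 5.11%, 7.89%, 7.23% and 4.22% in Cont_294, Cont_345, Cont_365 and Cont_370. The means of 5.70% ± 1.33 in Sufu-cKO and 6.11% ± 1.73 in control samples (SD, n = 4 each) differed by less than the spread within either group (exact permutation, p = 0.686). Hba-x made up 78.7% ± 3.66 of the alpha-like counts in Sufu-cKO and 80.3% ± 4.08 in control samples (SD, n = 4 each; exact permutation, p = 0.571). Cont_370 held the highest share, 85.3%, and Mut_295 the lowest, 74.2%. The intervals were at most 0.364 percentage points wide for the adult beta share and 1.73 for the Hba-x share.

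The balance of the chains and the level of the heme enzyme beside them were compared in the same way. The log2 ratio of alpha-like to beta-like counts averaged -2.92 ± 0.240 in Sufu-cKO and -2.70 ± 0.181 in control samples (SD, n = 4 each; exact permutation, p = 0.229). That ratio takes in the uncertain adult copies. The log2 ratio of Alas2 to globin counts averaged -6.56 ± 0.064 in Sufu-cKO and -6.66 ± 0.094 in control samples (SD, n = 4 each; exact permutation, p = 0.143).

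The share of each near-identical copy took separate levels in different samples. Hba-a1 made up 82.5%, 81.7%, 82.0% and 79.6% of the adult alpha counts in Mut_295, Mut_317, Mut_337 and Mut_340. In control samples the share was 61.9% in Cont_294, 82.2% in Cont_345, 62.1% in Cont_365 and 81.4% in Cont_370. Cont_294 and Cont_365 stood together below the other 6 samples, which lay at 79.6% to 82.5%, with intervals of at most 4.11 percentage points (genotypes compared by exact permutation, p = 0.229). Hbb-bt made up 31.9%, 34.98%, 20.02% and 23.4% of the adult beta counts in Mut_295, Mut_317, Mut_337 and Mut_340. Control shares were 33.8% in Cont_294, 30.6% in Cont_345, 31.0% in Cont_365 and 20.6% in Cont_370. Here Mut_337, Mut_340 and Cont_370 lay at 20.02% to 23.4%, below the 30.6% to 34.98% of the other 5, with intervals of at most 3.08 points (exact permutation, p = 0.914). The low samples of the alpha pair and those of the beta pair were different samples. Cont_294 and Cont_365, with the low Hba-a1 share, were also the samples highest in Hba-a2. The labels name a mixed strain background and not the globin alleles of a sample, and the part of either in these shares was not tested.

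**Figure D3:**
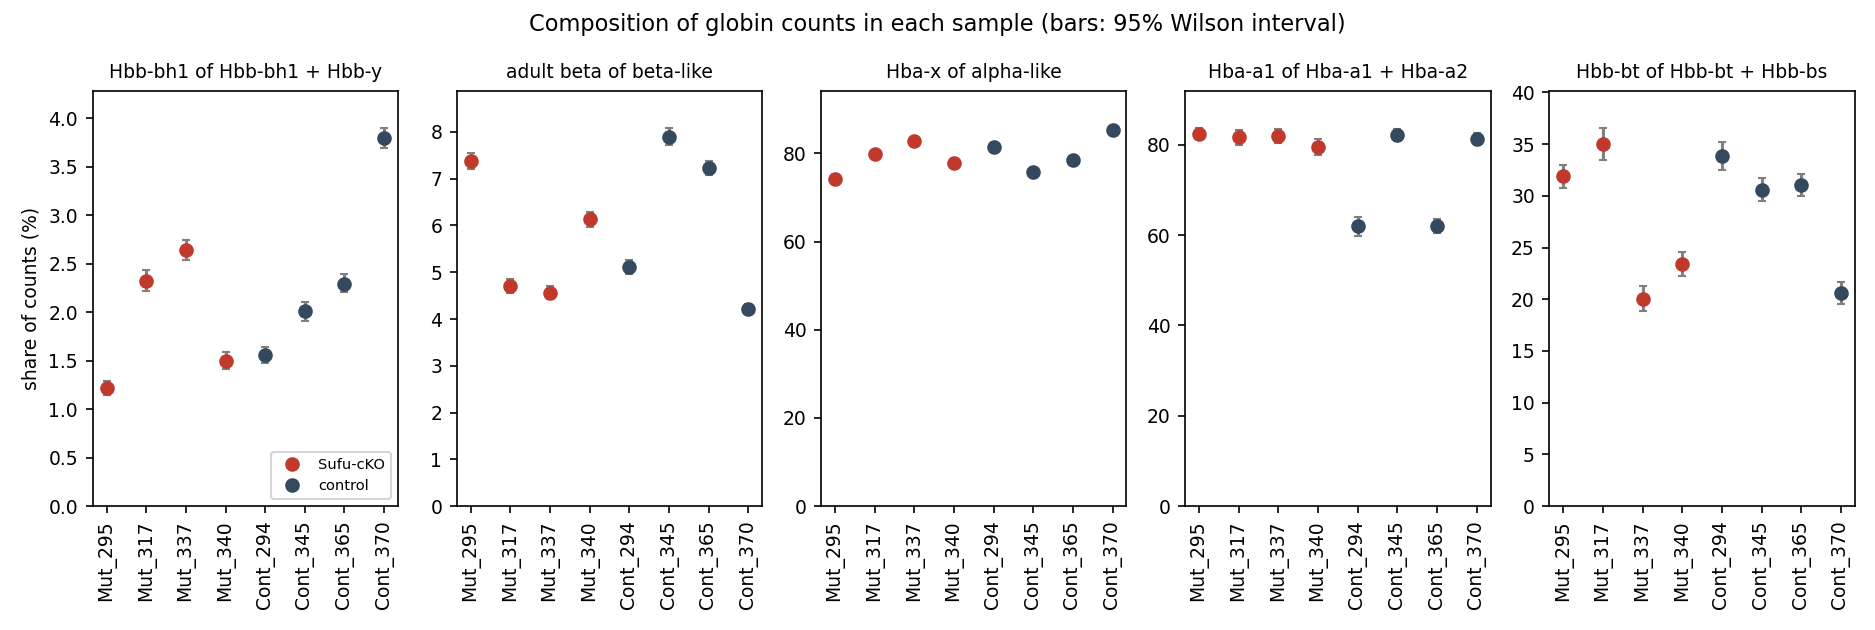
Share of counts in percent (vertical axes, each from 0) for 5 pairs or groups of globin genes, in each Sufu-cKO (red) and control (dark) sample, with 95% Wilson intervals. Hba-a1 lies at 61.9% and 62.1% in Cont_294 and Cont_365 and at 79.6% to 82.5% elsewhere, and the genotypes overlap in every panel.

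The main embryonic alpha-like gene and the main embryonic beta-like gene varied together over the 8 samples. Hbb-y and Hba-x on the log2 CPM scale had Pearson's r = 0.90 and Spearman's rho = 0.90. Without Cont_365 and Cont_370, the samples farthest from the median of Hbb-y, r was 0.63, and with each genotype centred on its own mean it was 0.80. Both genes averaged lower in Sufu-cKO, and the points share their libraries. Hbb-bs and Hbb-bt had r = 0.65 and rho = 0.71, with r = 0.72 without Cont_365 and Mut_317. The Hbb-bh1 share and the adult beta share had r = -0.58 and rho = -0.74. That relation rested on Cont_370 and Mut_295, without which r was -0.19. These 3 pairs were chosen after the values were seen, so the coefficients are a description and no p is given.

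**Figure D4:**
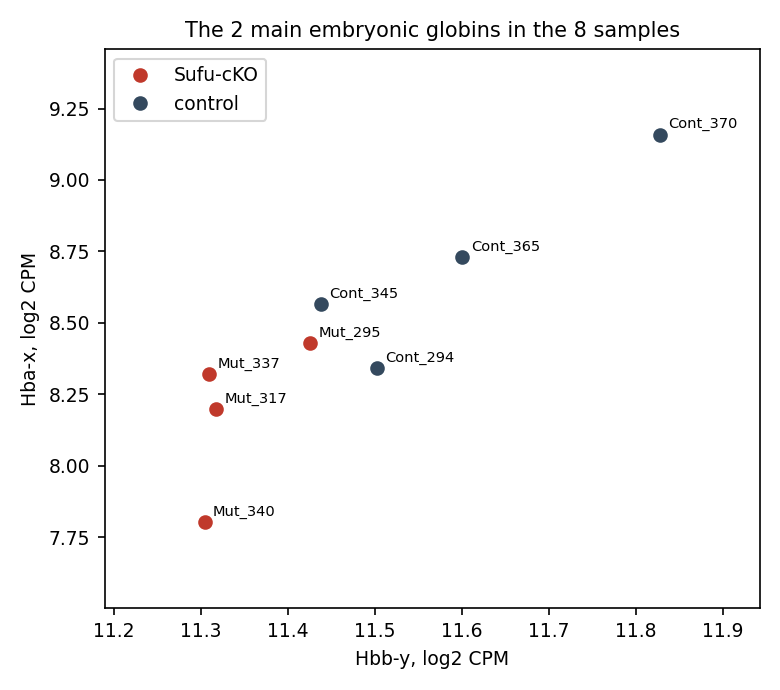
Hba-x against Hbb-y, both in log2 CPM, in the 4 Sufu-cKO (red) and 4 control (dark) samples. Samples high in one gene are high in the other (r = 0.90 over 8 samples), with Mut_340 at the lower and Cont_370 at the upper end.

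Other genes of red cells had fold changes below 0 in most cases, with few calls. Over all tested genes 48.2% had a fold change below 0 and edgeR called 5.64% as lower, against which the counts of each list below stand as descriptions. Among defining markers of red cells, the log2 fold change was -0.45 for Epor, the erythropoietin receptor, -0.34 for Klf1 and -0.89 for Gata1, both erythroid transcription factors, and none of these passed (edgeR, adjusted p = 0.320, 0.614 and 0.174 in that order). Epor, Klf1 and Gata1 averaged only 0.386 to 0.592 CPM in Sufu-cKO and 0.497 to 0.807 CPM in control samples. Their fold changes therefore rest on few counts. Of 16 tested genes of the red cell membrane and surface, 2 fell, 14 did not pass and 13 had a fold change below 0 (median -0.27). The genes that fell were Xk, a membrane protein of the Kell complex, which had 20.3 CPM in Sufu-cKO and 30.5 CPM in control samples (log2 fold change -0.59, edgeR, adjusted p = 0.00101), and Sptb, the erythroid beta spectrin (-0.65, edgeR, adjusted p = 0.0207). Slc4a1, the band 3 anion exchanger of red cells, had a log2 fold change of -0.28 (edgeR, adjusted p = 0.409). Epb41 was by far the most abundant of the list, with 383 CPM in Sufu-cKO and 348 CPM in control samples. Its log2 fold change was 0.14 (edgeR, adjusted p = 0.0859). With Epb41 included, the summed level of the list was 488 to 531 CPM in Sufu-cKO and 492 to 523 CPM in control samples. The list held 1 called gene without Cont_345 or Cont_370 and 3 without Mut_337, and DESeq2 called 1 further gene as higher. Its median was -0.09 without Cont_370 and -0.16 without Mut_340.

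Of 7 tested erythroid transcription factors 1 fell and 6 did not pass (median -0.34). The one that fell was Lmo2, a partner of TAL1 in blood and endothelium, with 25.3 CPM in Sufu-cKO and 48.0 CPM in control samples (log2 fold change -0.93, edgeR, adjusted p = 0.000338). Tal1, likewise a factor of blood and endothelium, had -0.23 (edgeR, adjusted p = 0.247). The summed level of the 7 factors, with Lmo2 the most abundant, was 34.7 to 43.3 CPM in Sufu-cKO and 57.0 to 76.7 CPM in control samples. Of 5 tested genes listed for the inside of the red cell, 1 fell, 1 rose and 3 did not pass. The one that fell was Hemgn, a nuclear protein of erythroid precursors and not a cytoplasmic one (log2 fold change -1.49, edgeR, adjusted p = 0.00918), and the one that rose was Bpgm, the enzyme that makes bisphosphoglycerate (0.29, edgeR, adjusted p = 0.00494). Bpgm had 90.03 CPM in Sufu-cKO and 73.5 CPM in control samples. Hemgn was near the floor, with 0.423 CPM in Sufu-cKO and 1.20 CPM in control samples. When at least 1 CPM in 4 samples was required, 4 genes of the list were tested and 0 were called as lower. The median of the list was -0.17, and -0.08 without Mut_340. Its summed level was 191 to 228 CPM in Sufu-cKO and 190 to 210 CPM in control samples.

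Genes of heme synthesis other than Alas2 were not called in any of 8 cases (median -0.01, with 4 of 8 below 0). The most abundant were Urod and Fech, which encodes the enzyme that puts iron into heme, with log2 fold changes of -0.13 and -0.03. Cells outside the blood also use these enzymes. Of 8 genes of heme and iron transport none passed (median -0.06), and 1 passed when Mut_340 was left out. Tfrc, the transferrin receptor, had a log2 fold change of -0.13 (edgeR, adjusted p = 0.460), and Slc25a37, the mitochondrial iron importer of red cells, had -0.0050 (edgeR, adjusted p = 0.986). At an unadjusted p under 0.05 edgeR found 0 in either list. DESeq2 and limma-voom called 0 in both.

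Among other genes of the globin family 3 were tested. Cytoglobin (Cygb), an oxygen-binding protein of tissues rather than red cells, fell to 3.51 CPM in Sufu-cKO, against 7.67 CPM in control samples (log2 fold change -1.13, edgeR, adjusted p = 0.00193). The pseudogene Hbb-bh0 (-0.59) and Hbq1b, a theta globin (-0.27), did not pass. Hbb-bh2, Hbq1a, Mb and Ngb had 0 to 13 counts per library and were not tested.

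Of 7 factors known for the switch from embryonic to adult globin, Bcl11a fell (log2 fold change -0.35, edgeR, adjusted p = 0.00744) and 6 did not pass. It had 240 CPM in Sufu-cKO and 306 CPM in control samples. Chd4, a chromatin remodeller, was the most abundant, with a log2 fold change of -0.04 (edgeR, adjusted p = 0.790). Lin28b, an RNA-binding protein of fetal cells, had 0.75 (edgeR, adjusted p = 0.0523). DESeq2, limma-voom, edgeR without robust estimation and edgeR without Cont_370 each called 1 factor of this list as higher. Neurons and neural progenitors also express these factors, so their levels here do not report on red cells.

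Markers of vessels, of macrophages and microglia, and of platelets were measured beside the globins. Their counts stand against the same 48.2% below 0 and 5.64% called as lower over all genes. All 15 tested endothelial genes had a fold change below 0, with a median of -0.21, and Kdr, Ramp2 and Cdh5 fell while 12 did not pass. Kdr, a receptor for VEGF, had a log2 fold change of -0.29 (edgeR, adjusted p = 0.0150). Their summed level was 454 to 551 CPM in Sufu-cKO and 566 to 632 CPM in control samples, without overlap. The pericyte and macrophage sums below did not overlap either. Single genes lacked overlap with Sufu-cKO lower in 7.86% of cases, which is not a background for a sum over several genes. Of 8 pericyte genes Vtn (log2 fold change -0.72) and Notch3 (-0.57) fell and 6 did not pass (median -0.25). The pericyte sums were 175 to 233 CPM in Sufu-cKO and 268 to 297 CPM in control samples. Notch3, the most abundant of the list, weighed most in these sums, with 87.9 CPM in Sufu-cKO and 131 CPM in control samples. The next most abundant, Rgs5 and Pdgfrb, were not called (log2 fold changes -0.11 and -0.27). Of 12 genes of macrophages and microglia P2ry12, Csf1r and Cx3cr1 fell and 9 did not pass (median -0.34), with sums of 53.1 to 70.5 CPM in Sufu-cKO and 72.1 to 89.8 CPM in control samples.

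Of 9 tested genes of platelets and megakaryocytes Pf4, a platelet chemokine, fell (log2 fold change -0.72, edgeR, adjusted p = 0.0303) and 8 did not pass (median -0.40). Itgb3, a platelet integrin and the most abundant, had -0.11 (edgeR, adjusted p = 0.784). The sums were 10.9 to 18.3 CPM in Sufu-cKO and 16.3 to 23.7 CPM in control samples. The part of any of these cell types in the globin values was not tested. Counts of called genes in these lists were unsteady. With 1 sample left out the macrophage list held 0 without Cont_294, Cont_345, Cont_365, Mut_317 or Mut_340, and the endothelial list 1 without Cont_294, Cont_365, Cont_370, Mut_317 or Mut_340, as it did with limma-voom and with edgeR without robust estimation. Pf4 was not called without Cont_345, Cont_365, Mut_295, Mut_317 or Mut_340, and the pericyte list held 1 without Cont_345. The platelet median ran from -0.60 without Mut_295 to -0.18 without Mut_340, with -0.23 without Cont_365. For comparison, Emx1, Emx2, Lhx2 and Neurog2 fell among the dorsal forebrain genes, and Pax6 and Tbr1 rose.

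**Figure D5:**
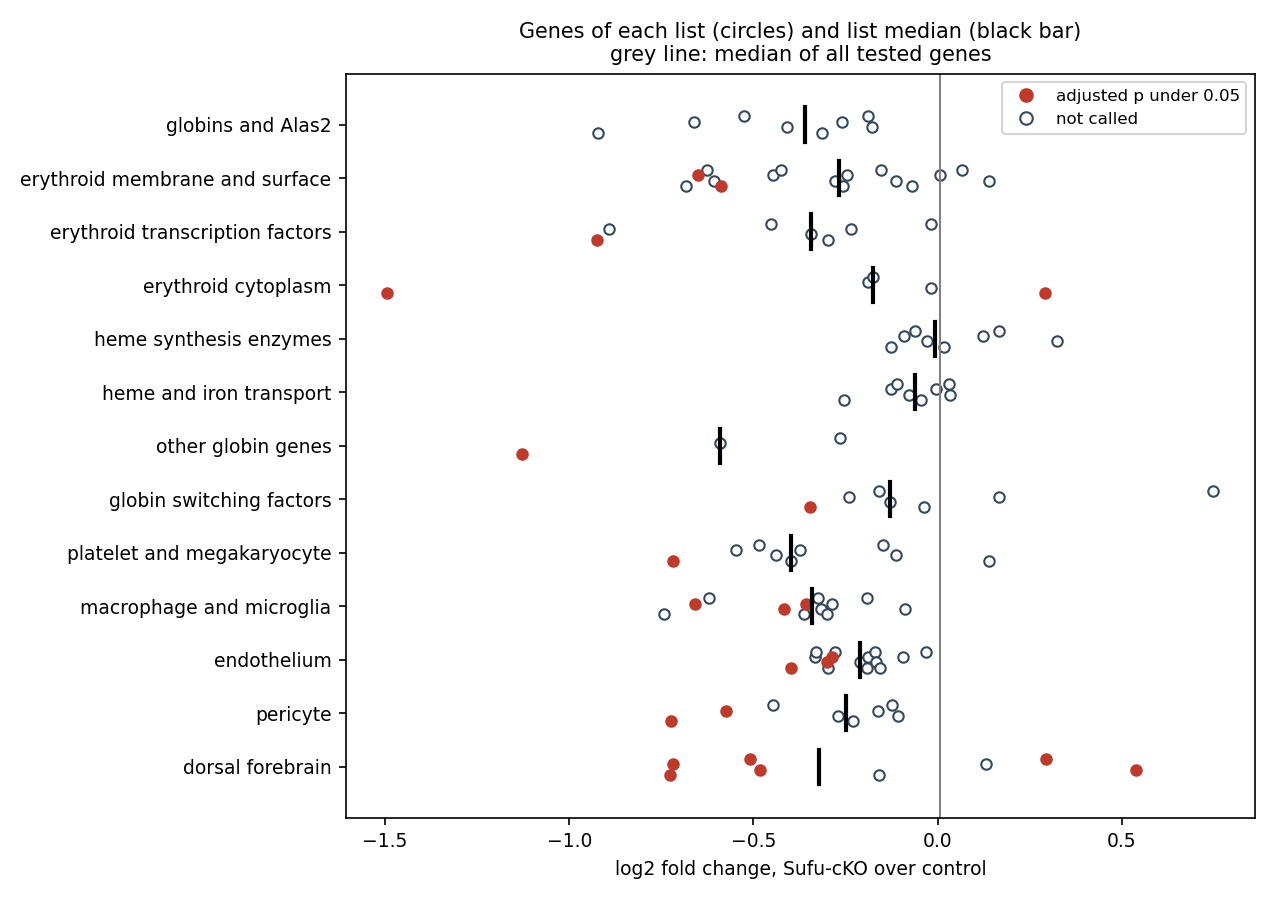
Log2 fold change of every tested gene, Sufu-cKO over control (horizontal axis), for the 8 globin and Alas2 genes and each list. Filled circles passed an adjusted p under 0.05 and black bars are medians. The median of the globins and Alas2 is -0.36, and those of the lists run from -0.59 for the 3 other globin genes to -0.01 for heme synthesis, with dorsal forebrain at -0.32.

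The genes whose pattern over the 8 samples was most like the mean log2 CPM of the set were found by Pearson's r, given as a description. The 10 highest were Gng5 (a G protein gamma subunit), Cacnb3 (a calcium channel subunit), Gpt (alanine aminotransferase), Fiz1, Slc11a2, Ctxn1, Slc29a4, Ctnnbip1, Homer3 and Dnlz, with r from 0.95 to 0.98. With each genotype centred on its own mean r ran from 0.89 to 0.97. Slc11a2, the only one of the 10 in a list here, encodes the iron transporter DMT1 and had 50.1 ± 1.08 CPM in Sufu-cKO and 54.1 ± 2.41 CPM in control samples (SD, n = 4 each; edgeR, adjusted p = 0.281). Cacnb3 (edgeR, adjusted p = 0.0134) and Slc29a4 (edgeR, adjusted p = 0.0490) were called, both lower in Sufu-cKO, and the other 8 were not.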

How the data were processed

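Libraries of 8 samples were prepared with Illumina's Truseq Stranded mRNA kit, according to the labels' protocols, and the authors deposited their raw gene counts. Reads were aligned with STAR 2.4.2a to GRCm38, per the submitters' processing notes. How reads were counted (program, strand setting, reads with several matches) is not given in the sources used here. A second deposited table holds a normalised signal, each count divided by 1 factor per sample, with a fold change (the ratio of the Sufu-cKO to the control level, by the authors), the authors' p-value and false discovery rate. Value columns that matched no sample numbered 0.

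Counts were tested with edgeR 4.0.16 in R 4.3.3: filterByExpr defaults (minimum count 10, minimum total 15), TMM factors and the robust quasi-likelihood F-test, 2-sided, with Benjamini-Hochberg adjustment over all 15382 tested genes, which held 99.94% of counts. SEs were back-calculated from the F statistic. The test was checked on simulated data. Log2 CPM used a prior count of 2. Every pair of samples within a group differed by far more than sampling noise (chi-square over its degrees of freedom of 8.90 or more). DESeq2 1.42.0 and limma-voom (limma 3.58.1) were alternatives, beside other scalings and filters, summed copies and each sample left out.

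Exact permutation used scipy 1.17.1. Exon lengths and transcripts came from GENCODE M21, coordinates from the deposited table, promoters from RefSeq. In the lists, 3 symbols were matched by Ensembl ID, and Ahsp was not analysed here. Some list members are not reported here by name. Named are the set, up to 4 called members of each list by smallest p or else its most abundant genes, and the 10 genes of greatest likeness. Other list members named were chosen after their values were seen. The members and lists were chosen with earlier results of these data known.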

Additional observations from a re-analysis of the deposited data

Results flagged for a closer look

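In Sufu-cKO samples, Hbb-y in Mut_295, at 2751 CPM, stood apart from the other 3, which lay at 2529 to 2553 CPM. Its gap to the nearest of them was 0.895 of the group's range, above Dixon's 95% critical value for 4 samples. A total of 30 groups of 4 values was examined in this way, and chance alone flags about 1 in 20.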

How the results depend on the processing

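The 8 genes gave 142 values under the alternatives. All 142 kept a log2 fold change below 0, and 135 stayed on the same side of the threshold. The other 7 became calls: 5 for Hbb-y and 2 for Hba-a2. The number of the 8 genes called was 0 in the main test, 1 with upper quartile scaling, 1 with no low-count filter, 1 without robust estimation, 2 with DESeq2, and from 0 to 1 with 1 sample left out. Over all genes 1689 were called, and 1079 (without Cont_345) to 1836 (without Mut_295) with 1 sample left out. The summed globin ratio ran from -0.35 to -0.22 on the log2 scale, and counts per kb of exon changed no call on shares. With 1 sample left out (35 splits, smallest p 0.0571) the difference changed sign for 3 uncalled shares: adult beta (-1.05 to 0.18 percentage points), Hba-x (-3.00 to 0.15) and Hbb-bt (-4.26 to 1.06). The cause was not tested. No paired analysis was possible because the genotypes share no sample numbers. Among Sufu-cKO samples the range of the Hba-a1 share was of the size of its counting intervals. The authors' handling of reads shared by the adult copies could not be varied.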
